A study of Mus musculus with 19 samples.

Results

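The transcripts described here are those of 8 genes of receptor signalling, namely the ERBB receptors Egfr, Erbb2 and Erbb3, the receptor inhibitor Errfi1, the Sprouty genes Spry2 and Spry4, and the MAP kinase phosphatases Dusp4 and Dusp6. They were chosen by name as receptors of the ERBB family and as genes that restrain the signal these receptors send through MAP kinases. All 8 are among the 24689 genes of the table and among the 22745 genes tested.

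ERBB receptors are cell surface tyrosine kinases that bind growth factors of the EGF and neuregulin families, pair up, and pass a signal through RAS, RAF and MEK to the kinase ERK. Several genes that ERK signalling switches on encode brakes on the same route, so that their transcripts are widely read as a trace of its activity. In stratified epithelia such as that of the tongue, EGFR is known as a driver of basal keratinocyte growth, and it is a drug target in squamous cell carcinoma of the head and neck.

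RNAseq values came from tongue epithelium of 19 mice, collected 15 days after transgene induction. The study placed oncogenes under control of doxycycline in basal epithelial cells, to compare papillomavirus oncogenes, an active YAP1 and the pair of them with normal epithelium. All groups were induced with tamoxifen injected into the tongue and with doxycycline in the diet, and the mice were littermates of 8 to 16 weeks. The 5 E mice carried Krt14-CreERT and LSL-rtTA together with tetON_E6-E7, the viral oncogenes that inactivate p53 and RB. The 3 Y mice carried the same driver pair with tetON_YAP1S127A, a YAP1 that escapes inhibition by LATS kinases, and the 6 EY mice carried both effectors. Among the 5 N mice, which served as controls, N1, N2 and N3 had Krt14-CreERT and LSL-rtTA alone. Mouse N4 had LSL-rtTA without Cre, and mouse N5 had Krt14-CreERT with both effectors but without rtTA. According to its methods, the study also bred a tetON_H2B-GFP reporter into these lines. The Krt14 promoter drives Cre in basal cells, and cells that descend from them inherit the recombined driver. Ages and sexes were balanced over the groups by the study.

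Values are TPM (each transcript's share of a mouse's total, scaled) as deposited, and the whole reads behind them could be recovered, 8269674 to 11007304 per mouse. Reads per TPM followed the full span of each gene, introns included, within 5% in 15802 of 15912 spliced genes, and followed the joined exons in 680. A deposited level can therefore be compared between mice but not between genes, since Egfr was divided by 166 kb where its joined exons measure 11.3 kb. The 8 genes are compared with one another below only as TPM computed from the recovered reads over joined exons. Sums of marker lists add deposited TPM, so that they serve to compare mice, and the weight of a gene within a sum depends on its span.

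The epithelium carried its defining markers. Krt14, a keratin of basal cells, averaged 6050 TPM in N and 16700 TPM in EY mice, and Krt13, a keratin of the upper layers of the tongue, averaged 71100 and 20900 TPM. Over 6 basal markers, with Krt14 as the largest term, N mice summed to 9240 to 14600 TPM, E mice to 8930 to 15400, Y mice to 17100 to 31000 and EY mice to 16000 to 32100. Of these 6 markers, 3 rose and 2 fell in EY against N, and after median-of-ratios scaling 1 was higher and 2 lower. The sum thus follows Krt14 and does not stand for the whole list, as Krt15 fell from a mean of 1860 to 800 TPM. All 6 markers of differentiation together, with Krt13 as the largest term, gave 68500 to 137000 TPM in N and 29100 to 42800 in EY mice, and 5 of the 6 fell. Targets of YAP were read beside the Y and EY labels. Their list was chosen with earlier results of these data known, so it is no independent check of the labels. Of 7 such genes, 6 rose in EY and 4 in Y mice, where 31.9% and 8.51% of all genes passed, and quantile normalization left 5 and 2. In E mice limma called none of the 7, none had an unadjusted p below 0.05, and limma with voom weights on the recovered reads called 0. In EY against Y, where 3.53% of all genes passed, limma called none of the 7 either. None had an unadjusted p below 0.05 there and voom called 0, so the list does not separate these groups. For Amotl2, as an example, the mean was 15.8 ± 2.91 TPM (SD, n = 5) among N mice, 14 ± 2.59 (n = 5) among E mice, 53.7 ± 11.7 (n = 3) among Y mice and 66.3 ± 10 (n = 6) among EY mice.

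Transcripts of other tissues were present. The summed level of 7 skeletal muscle markers, with Acta1 or Tnni2 as the largest term, had a median of 67.4 TPM and a highest value of 286 among N mice, against 66.8 as the lowest and 216 as the median among EY mice, with by far the highest value in mouse EY3. E mice had 28.8 to 163 TPM and Y mice 31.1 to 205. Of these 7, Tnni2 alone passed in EY mice (31.9% of all genes), and not after median-of-ratios scaling or quantile normalization. The median log2 difference of this list in EY was 1.78. Summed over 6 fibroblast markers, N mice had 61.5 to 293 TPM, E mice 57.2 to 104, Y mice 23.8 to 44.1 and EY mice 24.2 to 153, with the highest value in mouse N1. Of these 6, Dcn alone passed the test in EY mice, where it fell from a mean of 61.4 to 13.8 TPM, while the median log2 difference of the list was 0.39. The 6 leukocyte markers summed to 75.1 to 630 TPM for N mice, 11.6 to 435 for E mice, 543 to 978 for Y mice and 194 to 973 for EY mice. S100a8, the largest term in all 3 Y and in 5 of 6 EY mice, rose from a mean of 16.2 TPM among N mice to 496 among Y and 381 among EY mice. In N and E mice the largest term was Lyz2, chosen after its values were seen, with medians of 86.0 TPM for N, 143 for E, 20.8 for Y and 116 for EY mice. S100a9, of the same list, rose from a mean of 6.51 TPM among N mice to 249 among Y and 147 among EY mice. S100a8 and S100a9 were the 2 of the 6 markers that passed in Y and in EY mice, where 8.51% and 31.9% of all genes passed. Ptprc, which marks all leukocytes, had means of 0.771 TPM for N, 0.533 for Y and 1.12 for EY mice and did not pass. By flow cytometry, the study reports more CD45+ cells in epithelia with active YAP. Stressed keratinocytes make S100a8 as well, and its source was not tested. The 4 endothelial markers together stayed between 0.118 and 3.02 TPM, with Kdr at 0 in 4 mice. In such bulk tissue, fewer cells of a type and less RNA per cell cannot be told apart. The part of these cell types in the results on the 8 genes was not tested.

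**Figure D1:**
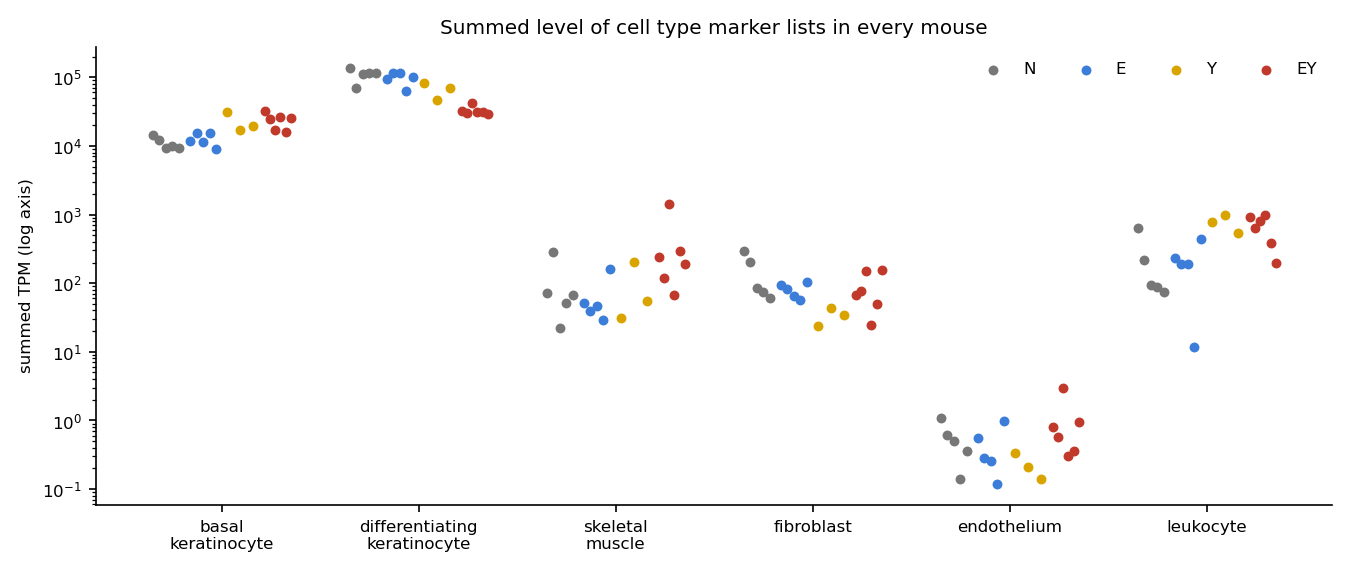
Summed TPM (log axis) of 6 lists of cell type markers, with 1 point per mouse and colours for the groups N (5 mice), E (5), Y (3) and EY (6). The sum of basal keratinocyte markers, mostly Krt14, lies higher and that of differentiation markers lower in EY than in N mice, and mouse EY3 stands out in skeletal muscle markers.

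Against N, 2 of the 8 genes passed the test in EY mice, Egfr and Dusp4, both higher. Of all genes tested, 31.9% passed (limma, Benjamini-Hochberg adjusted p below 0.01). With a log2 difference above 1 required as well, Dusp4 alone passed, against 18.3% of all genes. None of the 8 passed in Y mice, where 8.51% of all genes did, and none in E mice, where 1.75% did. At an unadjusted p below 0.05 limma gave 3 of 8 in Y and 1 of 8 in E mice, beside 6562 and 3358 of all 22745 genes, and voom called 0 in both. These comparisons share the N mice. Between the transgenic groups, Egfr was the 1 gene of the 8 that passed in EY against E, where 25.3% of all genes passed. No gene of the 8 passed limma's test in EY against Y (3.53% of all genes), in Y against E (4.34%) or for the interaction of both transgenes (0.198%). There, 2, 2 and 1 of the 8 had an unadjusted p below 0.05, beside 5425, 5293 and 3072 of all 22745 genes, and voom called 0 in each.

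The whole transcriptome shifted. Over all genes, EY mice had a median log2 difference from N of 0.33, Y mice of 0.13 and E mice of 0.07, and after median-of-ratios scaling it was 0.01, -0.03 and -0.02. Of the genes called in EY, 75.0% were higher than in N as deposited and 49.6% after that scaling. Beside these values for all genes, the 8 genes had medians of 0.47 for EY mice, 0.12 for Y mice and 0.05 for E mice as deposited. After median-of-ratios scaling the medians of the 8 genes were 0.10, -0.08 and -0.06. Differences are given on the log2(TPM + 0.1) scale, which understates the change of genes with low values. A low value can also mark a long gene, as 0.1 TPM stood for 188 reads of Nrg1 and 0.747 reads of Dusp6 in mouse N1. The pseudocount and the filter of 0.1 TPM therefore weigh more on genes of long span.

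**Figure D2:**
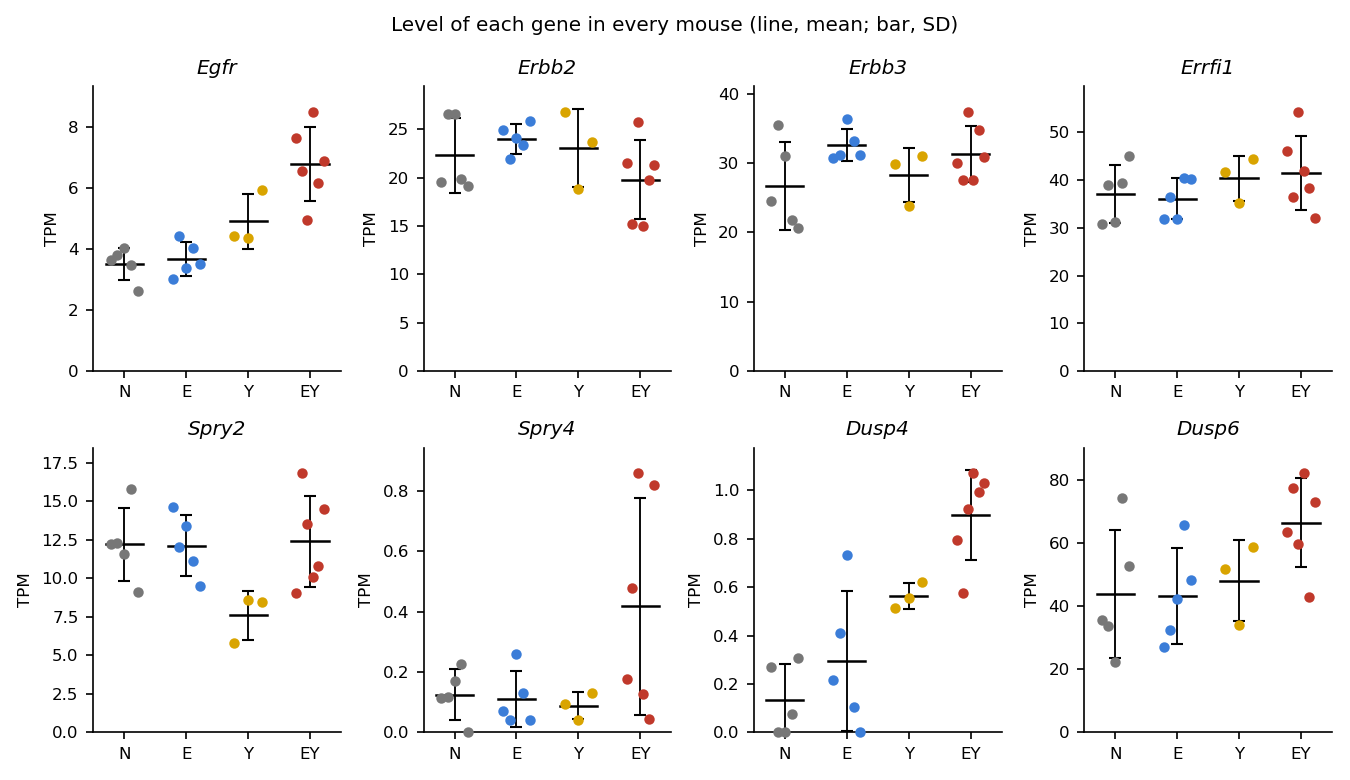
Deposited TPM (linear axis from 0) of the 8 genes in each of the 5 N, 5 E, 3 Y and 6 EY mice, with the mean as a line and the SD as a bar. Egfr and Dusp4 of all 6 EY mice lie above those of all 5 N mice, while Erbb2, Erbb3, Errfi1, Spry2, Spry4 and Dusp6 overlap between EY and N. Of all genes tested, 27.4% do not overlap between EY and N.

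Egfr encodes the receptor for EGF, TGF-alpha, amphiregulin, epiregulin, epigen, HB-EGF and betacellulin. In N mice it measured 3.64, 3.78, 4.02, 3.46 and 2.63 TPM, and in E mice 3.02, 4.43, 3.37, 4.02 and 3.51 TPM. The 3 Y mice had 4.41, 4.36 and 5.93 TPM, and the 6 EY mice ranged from 4.94 to 8.48 TPM with a median of 6.70. All EY and all Y mice lay above every N mouse, and the lowest EY mouse, EY3, was the one rich in muscle transcripts. Lying apart was common, as 27.4% of all genes did not overlap between EY and N, and 21.1% between Y and N. Levels ran in the order N, E, Y, EY, and each group overlapped with its neighbours in that order. Between 786 and 2191 reads per mouse stood behind these values.

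Egfr rose 1.90-fold in EY against N (log2 difference 0.92, SE 0.15, adjusted p = 9.06e-05) and 1.81-fold against E mice (0.86, SE 0.15, adjusted p = 0.00025), higher in 6 of 6 mice in both cases. Between EY and E, 24.2% of all genes did not overlap. Its difference from N was 0.60 above the median of all genes, and 0.56 after median-of-ratios scaling. Of all genes tested, 75.9% had a lower log2 difference in EY. Without mouse EY3 the difference was 1.01. Against N, the Y mice gave 0.47 (SE 0.18, adjusted p = 0.0932) and the E mice 0.07 (SE 0.16, adjusted p = 0.917). EY against Y gave 0.45 (SE 0.18, adjusted p = 0.128), and the interaction, which asks whether both transgenes together exceed the sum of their separate log2 differences, was 0.39 (95% confidence interval -0.12 to 0.89, adjusted p = 0.504). Among basal markers Krt14 was higher and Krt15 lower in the same EY mice, and the part of basal cells in the Egfr result was not tested.

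Erbb2 encodes a receptor with no known ligand of its own that serves as the preferred partner of the others. It measured 19.5, 26.6, 26.6, 19.9 and 19.1 TPM in N mice, 24.9, 21.9, 24.1, 23.4 and 25.9 in E mice, 26.8, 18.8 and 23.7 in Y mice, and from 15 to 25.8 with a median of 20.6 in EY mice. All groups overlapped, and the highest EY value was that of mouse EY3. As deposited, EY minus N was -0.18 (SE 0.14, adjusted p = 0.332). Set against the shift of all genes it lay 0.51 below their median, and after median-of-ratios scaling it passed the test with a difference of -0.56 and an adjusted p of 0.00184. With quantile normalization it was -0.60 (adjusted p = 0.00109). EY against E behaved alike, with -0.31 as deposited (adjusted p = 0.112), -0.57 with median-of-ratios scaling (adjusted p = 0.00202) and -0.57 after quantile normalization (adjusted p = 0.00206). Over all alternatives the adjusted p of EY minus N ran from 0.00109 to 0.582.

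Erbb3, the neuregulin receptor with little kinase activity of its own, ranged from 20.6 to 35.5 TPM among N mice, 30.8 to 36.4 among E mice, 23.8 to 31.1 among Y mice and 27.5 to 37.4 among EY mice. The groups overlapped. Its log2 differences from N were 0.25 in EY (adjusted p = 0.14), 0.11 in Y (adjusted p = 0.719) and 0.31 in E mice (adjusted p = 0.289), and that of EY turned to -0.12 after median-of-ratios scaling. The family's remaining receptor, Erbb4, stayed at or below 0.00436 TPM, with at most 8 reads in any mouse, and was not tested.

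Computed over joined exons, the 3 receptors stood closer together than the deposited values show. In N mice Erbb2 averaged 49.3 ± 8.41 TPM (SD, n = 5), Erbb3 44.7 ± 10.5 and Egfr 23.4 ± 3.42 TPM on that scale. Egfr made up 20.1% ± 2.16 (SD, n = 5) of the transcripts of these receptors among N mice, 18.5% ± 2.82 (n = 5) among E mice, 25.0% ± 3.32 (n = 3) among Y mice and 32.2% ± 6.75 (n = 6) among EY mice. The share of Erbb2 was 42.1% ± 1.90 in N and 30.7% ± 4.46 in EY mice, with 39.7 to 44.7% and 24.4 to 37.3% as the ranges, which did not overlap, while those of Egfr did, with 17.6 to 22.4% and 21.6 to 41.7%. Deposited levels of 27.4% of all genes did not overlap between EY and N, which counts single genes. No matching value was computed for shares. The share of Erbb3 was 37.8% ± 2.29 in N and 37.1% ± 3.22 in EY mice. These shares do not depend on the scaling of a mouse, and are given as a description with no test. They add up to the whole within a mouse, so a higher level of Egfr alone lowers the share of Erbb2. On the scale of joined exons Egfr averaged 44.0 ± 7.37 TPM (SD, n = 6) in EY mice. Erbb2 averaged 42.6 ± 9.03 TPM there, and its levels overlapped between N (42.3 to 59.1) and EY mice (32.0 to 56.0). With deposited TPM, Egfr would have held 6.75% ± 0.858 in N and 12.0% ± 3.16 in EY mice.

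**Figure D3:**
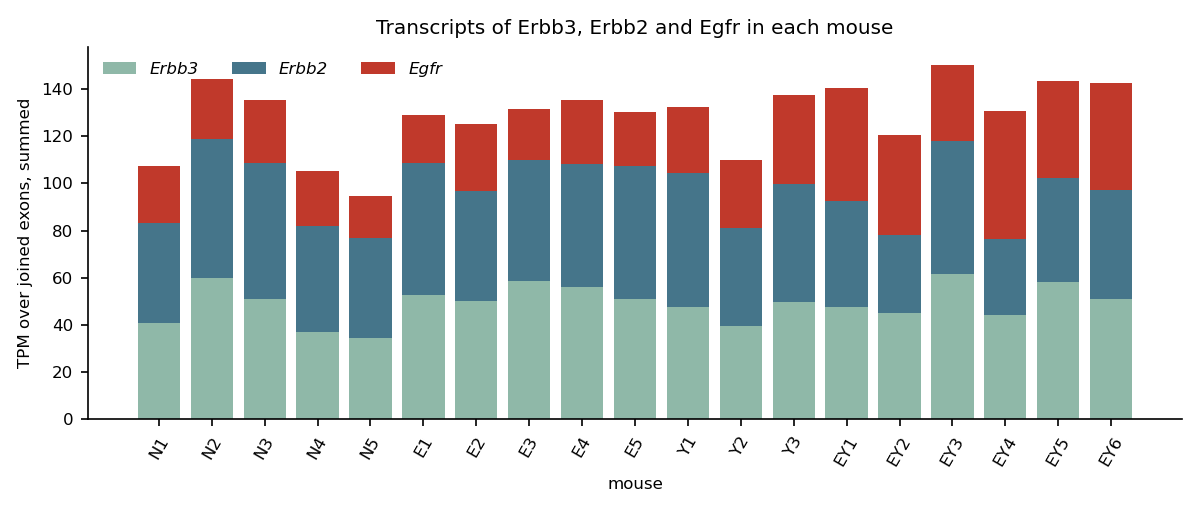
Stacked bars of the TPM over joined exons of Erbb3, Erbb2 and Egfr in each of 19 mice. The share of Egfr is 17.6 to 22.4% in N mice and 21.6 to 41.7% in EY mice.

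The 300 bases around the starts of Egfr and Erbb2, both on chromosome 11, are shown because Egfr passed the test and Erbb2 passed it after scaling only. Each window runs from 250 bases before to 50 bases after a start in RefSeq, build GRCm38.p6, on the plus strand, chr11:16751953-16752252 for Egfr and chr11:98412234-98412533 for Erbb2. Such windows were found for 5 of the 8 genes, with 6 starts, and not for Erbb3, Spry4 and Dusp4. Both strands were searched for GGAATG, the core bound by the TEAD partners of YAP, for TGANTCA of AP-1, for TGACGTCA, the cyclic AMP response element, and for the E2F site by its spellings TTTCCCGC, TTTCGCGC, TTTGCCGC and TTTGGCGC. Capitals mark a match.
Egfr: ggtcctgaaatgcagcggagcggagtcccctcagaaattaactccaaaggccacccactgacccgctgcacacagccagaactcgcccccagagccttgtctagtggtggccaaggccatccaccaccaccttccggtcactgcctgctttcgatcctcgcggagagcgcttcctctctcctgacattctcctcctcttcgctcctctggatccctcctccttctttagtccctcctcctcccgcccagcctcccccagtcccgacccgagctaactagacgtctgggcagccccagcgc
Erbb2: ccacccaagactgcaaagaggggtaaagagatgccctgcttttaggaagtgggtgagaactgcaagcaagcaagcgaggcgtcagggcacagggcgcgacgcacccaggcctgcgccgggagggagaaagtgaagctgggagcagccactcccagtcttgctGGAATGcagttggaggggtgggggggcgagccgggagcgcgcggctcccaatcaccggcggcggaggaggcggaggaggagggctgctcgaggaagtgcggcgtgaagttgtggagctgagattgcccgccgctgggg
The window of Egfr held none of the 4 motifs. That of Erbb2 held 1 GGAATG, whose first base lies 88 bases before the start. Of all 32851 windows, 14.7% held GGAATG, 7.81% TGANTCA, 1.79% TGACGTCA and 2.26% an E2F spelling, and a match describes letters only.

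Errfi1 encodes a cytoplasmic protein, also called MIG6, that binds the kinase domain of ERBB receptors and blocks it. Its transcript ranged from 30.9 to 45.1 TPM among N mice, 31.8 to 40.5 among E mice, 35.2 to 44.4 among Y mice and 32.1 to 54.3 among EY mice, the highest value being that of mouse EY3. All groups overlapped, and the group means spanned 1.15-fold. Log2 differences from N were 0.16 in EY (95% confidence interval -0.12 to 0.44, adjusted p = 0.374), 0.13 in Y (-0.21 to 0.47, adjusted p = 0.646) and -0.03 in E mice (-0.32 to 0.26, adjusted p = 0.967). After median-of-ratios scaling the EY value was -0.22.

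RefSeq gives Errfi1 a pair of starts on the plus strand of chromosome 4. They are shown as the windows of the feedback genes with a match, while those of Spry2 and Dusp6 held none of the motifs.
Errfi1, chr4:150853546-150853845: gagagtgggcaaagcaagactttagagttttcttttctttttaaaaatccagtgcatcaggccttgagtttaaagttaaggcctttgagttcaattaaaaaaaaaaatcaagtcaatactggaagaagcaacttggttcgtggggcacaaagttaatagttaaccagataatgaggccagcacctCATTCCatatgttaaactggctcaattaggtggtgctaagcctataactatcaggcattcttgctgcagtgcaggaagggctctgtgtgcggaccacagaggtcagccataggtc
Errfi1, chr4:150854820-150855119: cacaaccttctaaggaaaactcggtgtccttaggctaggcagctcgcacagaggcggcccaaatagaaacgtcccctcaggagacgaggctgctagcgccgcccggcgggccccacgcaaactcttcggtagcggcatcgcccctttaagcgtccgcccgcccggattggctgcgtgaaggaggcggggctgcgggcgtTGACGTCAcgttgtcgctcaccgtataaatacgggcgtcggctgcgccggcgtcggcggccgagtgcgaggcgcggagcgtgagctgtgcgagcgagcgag
The window of the upstream start held 1 GGAATG, read on the opposite strand as CATTCC. Around the downstream start lay 1 TGACGTCA, with its first base 51 bases before the start, and G and C made up 66.7% of that window against 42% of the other.

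Sprouty proteins hold back the signal between the receptor and RAF. Spry2 measured 12.2, 12.3, 11.6, 15.8 and 9.11 TPM in N mice and 14.6, 12.0, 13.4, 11.1 and 9.52 in E mice. In the 3 Y mice it was 5.77, 8.60 and 8.44 TPM, while in the 6 EY mice it ranged from 9.04 to 16.8 with a median of 12.1. The Y mice lay below all mice of the other groups, by a margin as narrow as that between mice Y2 and EY1, and N, E and EY overlapped. Over joined exons Y2 had 9.11 and EY1 9.10 TPM, so that Y and EY overlapped on that scale. Of all genes, 21.1% did not overlap between Y and N, 17.6% between Y and E, and 14.5% between Y and EY. From 39 to 156 reads per mouse stood behind these values. Y minus N was -0.67 (SE 0.21, adjusted p = 0.0383), EY minus Y was 0.69 (SE 0.21, adjusted p = 0.0434) and Y minus E was -0.67 (SE 0.21, adjusted p = 0.0534), and none of them passed the threshold of 0.01. Without mouse Y1 the first of these was -0.49 (adjusted p = 0.195). The interaction was 0.69 (SE 0.28, adjusted p = 0.273). In EY mice the difference from N was 0.02 (95% confidence interval -0.35 to 0.39), and -0.35 after median-of-ratios scaling. Summed fibroblast markers were also low in Y mice, and their part in the Spry2 values was not tested.

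Spry4 was near the limit of detection. N mice gave 0 to 7 reads of it, E mice 1 to 6, Y mice 1 to 3 and EY mice 1 to 21, or 0 to 0.227, 0.0413 to 0.261, 0.0419 to 0.129 and 0.0434 to 0.857 TPM. In EY2, EY3 and EY6 it measured 0.479, 0.857 and 0.819 TPM, above every mouse of the other groups, and the remaining EY mice lay among them. Summed fibroblast markers were also highest among EY mice in EY2, EY3 and EY6 (77.2, 148 and 153 TPM), and EY3 was rich in muscle transcripts. Mouse N1, with the highest fibroblast sum of all (293 TPM), had 0.113 TPM of Spry4. The part of these cell types in the Spry4 values was not tested. EY minus N was 0.96 (SE 0.48, adjusted p = 0.121), which missed the threshold. The group means of both genes ran in the order Y, E, N, EY.

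Dusp4 and Dusp6 encode phosphatases that take the activating phosphates off ERK, DUSP4 in the nucleus and DUSP6 in the cytoplasm. Dusp4 was sparse. In N mice it was listed at 0.271, 0, 0, 0.0781 and 0.308 TPM, in E mice at 0.217, 0.411, 0.733, 0.106 and 0, and in Y mice at 0.515, 0.555 and 0.622. The 6 EY mice ranged from 0.577 to 1.07 TPM with a median of 0.958. N mice had 0 to 7 reads behind these values, E mice 0 to 14, Y mice 9 to 12 and EY mice 13 to 22. All Y and EY mice lay above every N mouse, and E mice overlapped with each of the other groups. Again, 21.1% of all genes lay apart between Y and N, and 27.4% between EY and N.

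Dusp4 rose in EY against N by a log2 difference of 2.35 (SE 0.48, adjusted p = 0.000749), higher in 6 of 6 mice. The size depends on the pseudocount, with 0.75 at 1 TPM and 3.89 at 0.01 TPM, and the adjusted p over all alternatives ran from 9.69e-05 to 0.00734. It was 2.06 after median-of-ratios scaling. Y minus N was 1.78 (SE 0.58, adjusted p = 0.0465) and E minus N 0.67 (SE 0.51, adjusted p = 0.618). EY minus E was 1.67 (SE 0.48) and missed the threshold at an adjusted p of 0.0118. Leaving out 1 mouse at a time moved that p between 0.00287, without mouse E3, and 0.0376, and a pseudocount of 0.01 TPM gave 0.0712. It passed in 3 of 30 alternatives. The interaction was -0.11 (95% confidence interval -1.71 to 1.5, adjusted p = 0.969).

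Dusp6 was far more abundant. It measured 35.7, 33.9, 22.2, 74.5 and 52.8 TPM in N mice, 27.0, 32.4, 42.4, 65.9 and 48.3 in E mice, 51.8, 34.0 and 58.9 in Y mice, and from 43.0 to 82.2 with a median of 68.4 in EY mice. The highest values among N mice were those of N4 and N5, the controls that lack Cre or rtTA, and all groups overlapped. EY minus N was 0.69 (SE 0.28, adjusted p = 0.0608). With N1, N2 and N3 as the only controls it was 1.12 and passed the test (adjusted p = 0.00511). Median-of-ratios scaling, with all 5 controls, gave 0.32. Over all alternatives its adjusted p ran from 0.00511 to 0.452. Y minus N was 0.22 (adjusted p = 0.725) and E minus N 0.03 (adjusted p = 0.987). With the 3 controls these were 0.65 and 0.46, and with median-of-ratios scaling 0.02 and -0.08, and none passed. On the scale of joined exons Dusp6 averaged 27.2 ± 12.9 TPM (SD, n = 5) and Dusp4 0.275 ± 0.310 TPM in N mice.

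**Figure D4:**
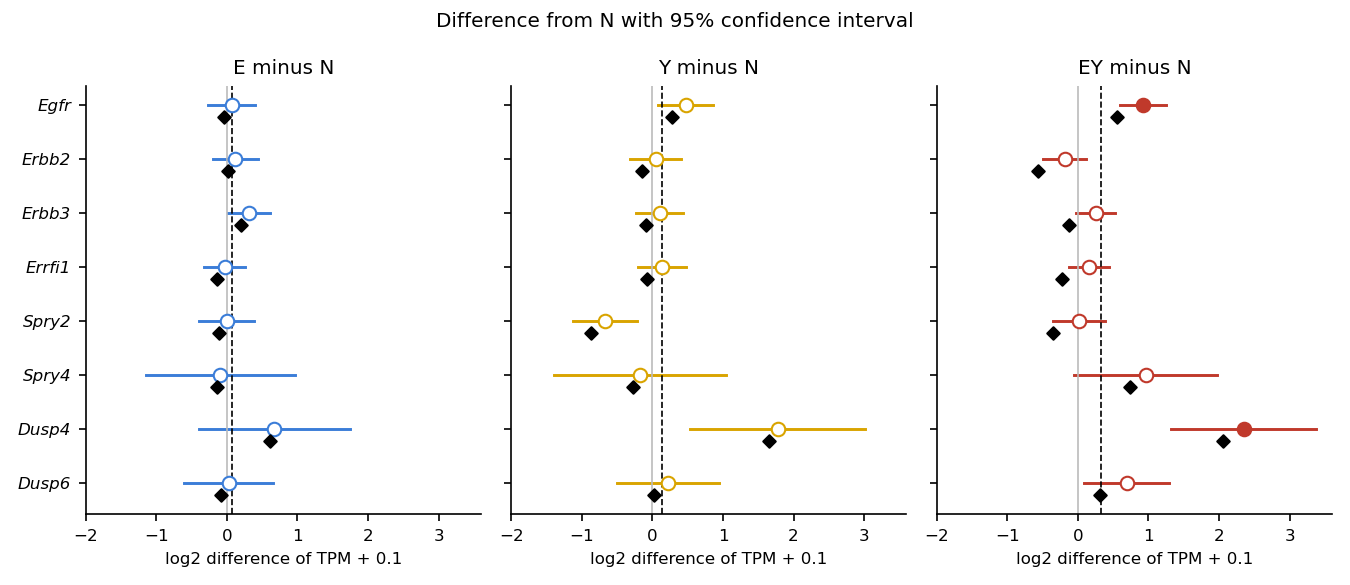
Log2 differences of TPM + 0.1 from N for the 8 genes in E, Y and EY mice, with 95% confidence intervals from limma. Filled circles passed at an adjusted p below 0.01, diamonds give the value after median-of-ratios scaling, and the dashed line is the median of all genes (0.33 in EY).

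Other genes of the route were read from 6 lists with 65 genes tested. In EY mice 22 of the 65 rose and 8 fell against N, with a median log2 difference of 0.48 beside 0.33 over all genes, of which 31.9% passed. After median-of-ratios scaling 10 were higher and 16 lower, with a median of 0.10 beside 0.01. Y mice had 7 higher and 1 lower, where 8.51% of all genes passed, and 4 higher and 2 lower with either rescaling. In E mice limma called none, 8 had an unadjusted p below 0.05, and voom called 0.

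Among 10 ERBB ligands tested, 4 rose and 1 fell in EY mice (31.9% of all genes passed), with a median of 0.57 beside 0.33, where median-of-ratios scaling gave 3 higher and 2 lower. Hbegf, a ligand of EGFR shed from the cell membrane, averaged 36.5 ± 16.5 TPM (SD, n = 5) among N mice and 103 ± 27.8 (n = 6) among EY mice, and rose 2.98-fold (log2 difference 1.58, SE 0.32, adjusted p = 0.0007). In Y mice Hbegf averaged 117 ± 8.89 TPM (n = 3) and rose 3.5-fold (1.81, SE 0.39, adjusted p = 0.00413). The call of Hbegf held in 30 of 31 alternatives for EY mice, not after median-of-ratios scaling (adjusted p = 0.0105), and in 24 of 31 for Y mice. In Y mice it was lost after median-of-ratios scaling or quantile normalization, with only the groups compared, and without N1 or any 1 of the Y mice. The adjusted p of Hbegf in Y mice reached 0.0205, with log2 differences from 1.52 to 2.19. Epgn, which encodes epigen, averaged 56.1 ± 18.9 TPM in N and 134 ± 24.4 in EY mice, and rose 2.48-fold (1.31, SE 0.22, adjusted p = 9.34e-05). Btc, for betacellulin, went the other way, with 2.38 ± 0.509 TPM among N mice, 1.31 ± 0.270 among E mice, 0.912 ± 0.262 among Y mice and 0.559 ± 0.217 among EY mice, and fell by 1.30 in Y and 1.97 in EY mice on the log2 scale (adjusted p = 0.00902 and 9.84e-06). E minus N was -0.82 for Btc (adjusted p = 0.131), with all E mice below every N mouse, where 4.57% of all genes did not overlap. In Y mice the call of Btc held in 11 of 31 alternatives only, with an adjusted p of up to 0.0529, and in EY mice it held in all 31. Nrg1, a ligand of ERBB3, rose in EY by 1.38 (SE 0.26, adjusted p = 0.000281), from a mean of 0.104 to 0.437 TPM. As its span is 1070 kb, these low TPM stood for 74 to 291 reads in N and 290 to 1096 in EY mice.

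Between receptor and ERK, 7 of 17 relay genes rose and 1 fell in EY mice (31.9% of all genes passed), with a median of 0.40 beside 0.33, none of them by more than 1 on the log2 scale. After median-of-ratios scaling 2 were higher and 4 lower. In Y mice 2 of the 17 rose (8.51% of all genes passed), and 1 did after median-of-ratios scaling or by voom. Of 11 other inhibitors that act on the receptors or on kinases linked to them, 4 rose and 1 fell in EY (31.9% of all genes), with a median of 0.58 beside 0.33, and after median-of-ratios scaling 1 was higher and 2 lower. In Y mice 1 of these 11 rose (8.51% of all genes). With either rescaling 0 were higher and 1 was lower in Y, and voom called 0. Ptpn2, a tyrosine phosphatase, rose between N (2.49 ± 0.395 TPM, SD, n = 5) and EY mice (6.09 ± 0.924, n = 6) by a log2 difference of 1.26 (SE 0.16, adjusted p = 5.94e-06). Lrig3, of a family of membrane proteins that act on receptor tyrosine kinases, fell by 1.13 (SE 0.22, adjusted p = 0.000414), from 12.6 ± 2.08 to 5.92 ± 1.98 TPM.

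Of 7 other Sprouty, Spred and RAS inhibitor genes tested, 1 passed in EY mice (31.9% of all genes), and the median was 0.28 beside 0.33. Median-of-ratios scaling gave 0 higher and 2 lower, and voom called 3 of the 7. The gene that passed as deposited, Spry1, fell by 1.11 (SE 0.29, adjusted p = 0.0048), without overlap, as for 27.4% of all genes, between N (35.1 ± 9.80 TPM, SD, n = 5) and EY mice (16.6 ± 5.77, n = 6). Its call held in 25 of 31 alternatives, with an adjusted p of up to 0.0577, and was lost without mouse N3, N4, N5, EY1 or EY4 and with N1, N2 and N3 as the only controls. In Y mice limma called none of the 7, 1 had an unadjusted p below 0.05, and voom called 0. Among 9 other MAP kinase phosphatases 3 rose and 2 fell in EY (31.9% of all genes), with a median of 0.47 beside 0.33, and after median-of-ratios scaling 1 was higher and 3 lower. Dusp9 rose the most of these 9. Its mean was 1.32 ± 0.851 TPM for N mice, 0.988 ± 0.590 for E mice, 4.25 ± 0.785 for Y mice and 14 ± 3.33 for EY mice, which is 11.4-fold above N in EY (3.51, SE 0.40, adjusted p = 1.83e-06). Y mice gave 1.83 for Dusp9 (SE 0.48, adjusted p = 0.0151), and all 3 lay above every N mouse, where 21.1% of all genes did not overlap. Dusp10, which acts mainly on JNK and p38, rose by 1.42 in EY (SE 0.35, adjusted p = 0.00333), with overlap between the groups. The call held in 26 of 30 alternatives, and not after median-of-ratios scaling, with log2 differences from 0.46 to 1.96. In Y mice limma called none of the 9, 4 had an unadjusted p below 0.05, and voom called 0.

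Genes that ERK signalling is known to switch on did not move as 1 block. Of 11 tested, 4 rose and 2 fell in EY (31.9% of all genes), with a median of 0.53 beside 0.33, and 3 rose in Y mice (8.51% of all genes). With median-of-ratios scaling, EY had 3 higher and 3 lower. Phlda1 averaged 64.5 ± 22.2 TPM (SD, n = 5) among N mice, 176 ± 44.3 (n = 3) among Y mice and 286 ± 55.1 (n = 6) among EY mice, a rise of 4.54-fold in EY (2.18, SE 0.23, adjusted p = 6.91e-07). Epha2, a receptor tyrosine kinase of the ephrin family, rose 3.8-fold in EY and 2.88-fold in Y mice (adjusted p = 1.54e-06 and 0.000721). In Y mice the call of Phlda1 held in 28 and that of Epha2 in 30 of 31 alternatives. Ier3, an early response gene, rose 3.28-fold in EY and 2.59-fold in Y mice (adjusted p = 1.36e-07 and 0.000109). The genes that fell in EY as deposited were Egr1 and Fos, which encode early transcription factors. Egr1 fell in EY by 1.60 (SE 0.23, adjusted p = 2.58e-05), from 489 ± 152 TPM in N to 160 ± 47.5, and Fos fell by 1.87 (SE 0.37, adjusted p = 0.000542), from 1080 ± 370 to 303 ± 122 TPM. Such genes respond within minutes to handling of tissue, and the part of tissue handling in these values was not tested. In E mice both were close to N, with 0.02 for Egr1 (adjusted p = 0.997) and -0.12 for Fos (adjusted p = 0.946). Y mice lay between N and EY, with means of 253 ± 36.5 TPM (SD, n = 3) for Egr1 and 830 ± 185 for Fos, and neither gene passed there.

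**Figure D5:**
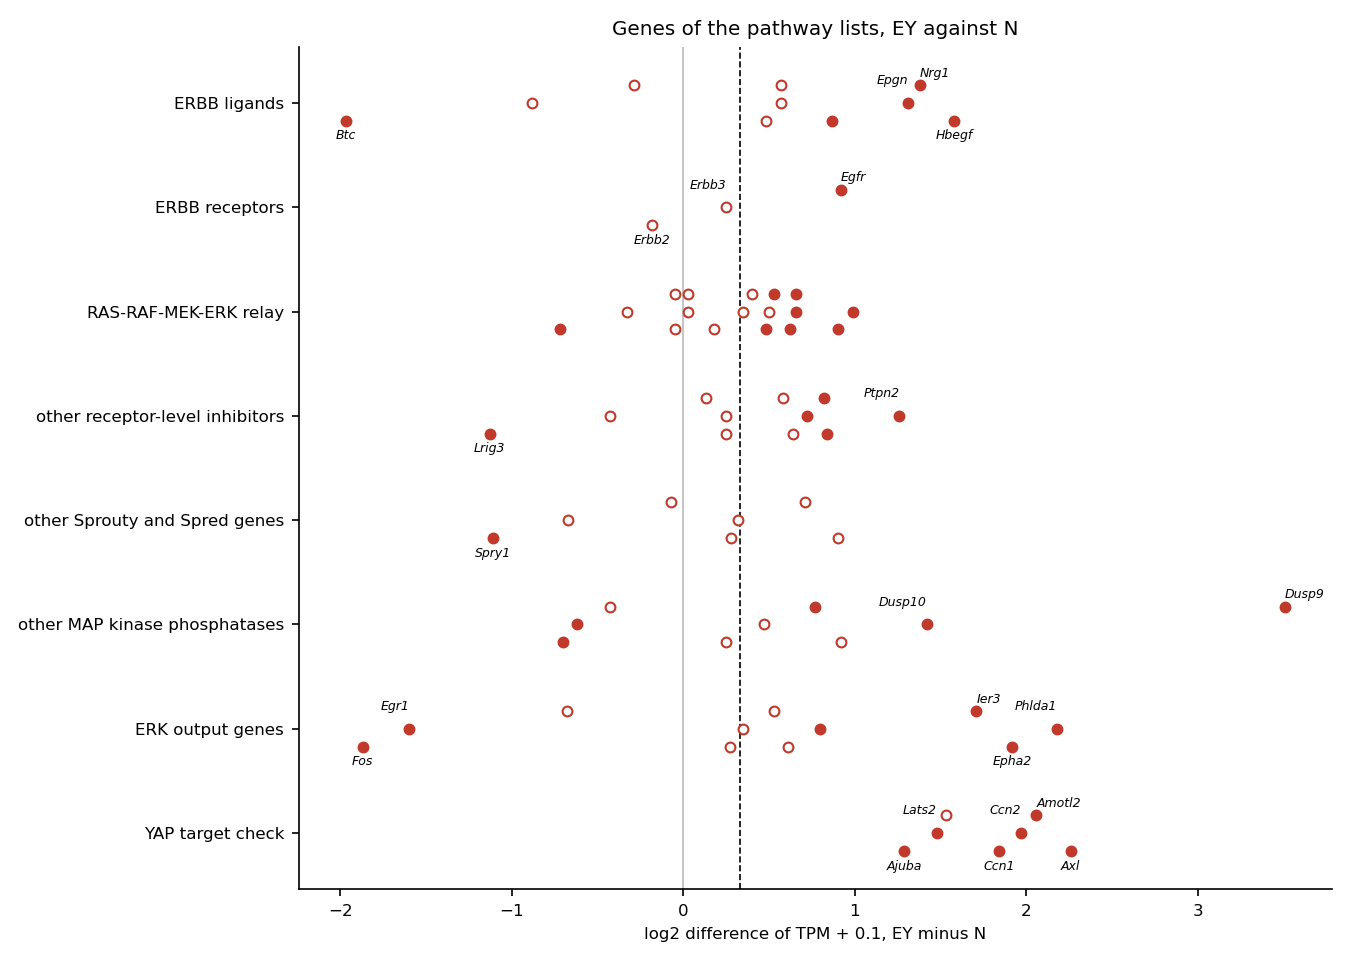
Log2 differences of TPM + 0.1 between 6 EY and 5 N mice for each gene tested of 8 lists, filled where limma's adjusted p is below 0.01. Names are given for ERBB receptors and for genes that passed with a difference above 1, and the dashed line at 0.33 is the median of all genes.

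The genes with the most similar pattern over the 19 mice were sought among 9184 genes with a mean of at least 5 deposited TPM. That cutoff favours genes of short span, since deposited TPM were divided by the span. These similar genes are a description in which differences between groups and between mice enter together. For Egfr they were Selenoi, Utp20 and Mthfd1, with a Pearson r of 0.97, 0.96 and 0.96 on log2(TPM + 0.1). For Erbb2 they were Mprip, Dock6 and Grk2 (0.89, 0.87 and 0.87), and for Erbb3 Rundc1, Numa1 and Lemd2 (0.88, 0.85 and 0.85). Spry2 came closest to H2-T23, Gm13241 and H2-T22 (0.76, 0.72 and 0.71) and Dusp6 to H3f3b, Fam110c and 1810055G02Rik (0.81, 0.78 and 0.78). Errfi1 had Gm11518, Gm26621 and Gm45444 (0.75, 0.73 and 0.68). The sparse Dusp4 had Tax1bp3, Gm26738 and Gm45095 (0.88, 0.87 and 0.87), and Spry4 had Prkar2a, Slc25a44 and Fam122a (0.80, 0.79 and 0.76).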

How the data were processed

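Microdissected tongue epithelia of 19 mice were analysed, grouped by title and genotype in the labels. The authors aligned reads to GRCm39 with STAR 2.7.9, sorted them with SAMtools 1.7, counted them with HTSeq 0.13.5, tested them with DESeq2 1.34.0, and deposited TPM. Whole reads were recovered from the steps of the TPM for 24680 of 24680 genes above 0, within 0.001 of a whole number. Testing covered genes that reached 0.1 TPM in 3 or more mice, by limma-trend (version 3.58.1, R 4.3.3) on log2(TPM + 0.1), with 1 mean per group, two-sided, adjusted by Benjamini-Hochberg over 22745 genes and called below 0.01. Script and model were tested on simulated data. Gene lengths came from GENCODE vM21 (GRCm38), for 23813 genes matched by symbol, and promoters from RefSeq. Tables and plots were made with pandas 2.3.3, matplotlib 3.10.9 and numpy 2.4.6 under Python 3.11.15.

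Alternatives were other pseudocounts (1 and 0.01 TPM), filters, scalings, thresholds and controls, a robust variance prior, voom, a block for the mouse number, a fit to only 2 groups at a time, each mouse left out, and, chosen after seeing the data, TPM over joined exons. All 8 genes are named. From the other lists, genes called with an absolute log2 difference above 1 against N may be named, with the 3 most similar genes of each of the 8. Members and lists were chosen with earlier results of these data known. No sequencing batch is given in the sources used here, nor are the transgenes' own transcripts analysed here. Nrg3 and Spry3, of the lists, have no row under these symbols in the table used here.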

Additional observations from a re-analysis of the deposited data

How the results depend on the processing

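Egfr and Dusp4 in EY against N, and Egfr in EY against E, passed under every alternative in which they were tested, apart from Egfr where a log2 difference above 1 was required. A filter at 1 TPM left 6 of the 8 genes, without Dusp4 and Spry4, and 1 called in EY against N, and a log2 difference above 1 left 1 there and 0 in EY against E. In EY against N, 3 genes were called with median-of-ratios scaling or quantile normalization (Egfr, Dusp4 and Erbb2). With N1, N2 and N3 as the only controls, 3 were called there as well (Egfr, Dusp4 and Dusp6). In EY against E, 2 genes were called with a pseudocount of 1 TPM (Egfr and Dusp4), with median-of-ratios scaling or quantile normalization (Egfr and Erbb2) and at an adjusted p below 0.05. That looser threshold gave 2 in Y against N and 1 in EY against Y. Leaving out 1 mouse at a time gave 1 to 2 genes in EY against E, with Dusp4 as the second without N5 or E3, and no other count moved. With the mouse number as a block, 2 genes were called in EY against N and 1 in EY against E, and genes called in EY against Y fell from 803 to 460 and for the interaction from 45 to 28. Mice with the same number showed little common deviation (mean r 0.016 over 24 pairs, beside -0.003 over 109 other pairs). Whether such mice shared a litter or a batch was not tested. TPM over joined exons gave the same counts. Over all genes, calls moved by over 1.5 times with only the 3 N mice of the common genotype (Y against N 972 for 1935, E against N 214 for 399), with only the groups compared (796, 171, and 284 in EY against Y and 257 for 986 in Y against E), for the interaction with voom (131) or quantile normalization (69), and without single mice (897 to 1226 in Y against N, 250 to 517 in EY against Y, 348 to 477 in Y against E, and 29 or 88 for the interaction). The causes were not tested. Spry4 and Dusp4 rest on 0 to 22 reads per mouse.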
